A study of Mus musculus with 14 samples.

Results

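Of the 160144 H3K4me1 sites found in immortalized mouse embryo fibroblasts, 115800 had their centre over 3 kb from every annotated transcription start site (TSS) and are called distal here. The centre of 3543 of these distal sites lay inside an annotated exon, which is 3.06% (95% Wilson interval 2.96 to 3.16%). Coding exons held 1151 of the 3543 centres, 3′ UTRs 1324, exons of transcripts without a reading frame (non-coding exons) 1051 and 5′ UTRs 17. A base that was coding in any transcript was counted as coding, and a base that was UTR in any other transcript was counted as UTR before it was counted as non-coding. The other distal sites were centred in introns (63531) or between genes (48726).

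The sites come from ChIP-seq with an antibody against H3K4me1 in the clone NG3, a line that goes back to an individual cell clone. In all samples exon 4 of the endogenous Ash2l had been deleted by a Cre recombinase that is activated by 4-hydroxytamoxifen, and the cells expressed human ASH2L fused to FKBP12F36V and HA tags from a lentiviral construct. Cells were left without dTAG-13, a compound that directs the tagged protein to degradation, or were treated with it for 30 min, 2, 4, 8 or 16 h. Each of the 6 conditions had 2 replicates, which makes 12 H3K4me1 libraries, and there were 2 input libraries, from the control and from the 16 h treatment. The table holds positions of sites pooled over all samples, without a value per library, so no site below can be tied to a time point, a replicate or a signal height. All comparisons are therefore between classes of sequence, and the intervals cover counting error only. How often a comparison held on the 20 chromosomes 1 to 19 and X shows how even it was over the genome. The chromosomes share the same libraries and site calls and are not replicates.

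Monomethylation of lysine 4 of histone H3 is deposited by KMT2 complexes, in which ASH2L is a core subunit, and it is known as a mark of enhancers, most of which lie in introns and between genes. Exons are also regulatory DNA: a stretch of coding sequence can carry binding sites for transcription factors besides its codons, and the 3′ UTR of a gene, which holds signals for the stability and translation of the mRNA, is read as DNA by the same factors. AP-1, a dimer of FOS and JUN proteins that binds TGAGTCA, is a general enhancer factor of fibroblasts.

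To show what such exonic sites look like at the level of the bases, 29 bases around a TGAGTCA match are given for 10 sites from the genes named below. They were chosen because the match lay in the 200 bp at the centre of the site. Sequences are from GRCm38.p6 (mm10), 5′ to 3′ on the strand of the gene. Capitals mark the match, which on the other strand reads TGACTCA.
Kmt2c, coding exon, chr5:25351196-25351224, minus strand: cgagtcagggaTGAGTCAgctacagagcc
Ptar1, coding exon, chr19:23720100-23720128, plus strand: ccctcccaaccTGACTCAcctgtcacctg
Ryr2, coding exon, chr13:11668894-11668922, minus strand: gcccaagggggTGACTCAgatcatcaact
Ash2l, coding exon, chr8:25819607-25819635, minus strand: ccatagtgaggTGAGTCAcagtcataaac
Tpm1, 3′ UTR, chr9:67023451-67023479, minus strand: tcagctactcaTGACTCAattttctaatc
Trib3, 3′ UTR, chr2:152337650-152337678, minus strand: aaagaggcatcTGACTCAaggaatagtct
Neat1, non-coding exon, chr19:5832157-5832185, minus strand: cagctgacgacTGACTCAgctcatgtatg
Kcnq1ot1, non-coding exon, chr7:143266002-143266030, minus strand: cagggatcctgTGACTCAtacagccttgc
Mllt3, non-coding exon, chr4:87840704-87840732, minus strand: gtggatcccaaTGACTCAgacgtggagga
3110039I08Rik, non-coding exon, chr9:41541591-41541619, plus strand: cagaacatatcTGAGTCAagaggttaagg

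In Kmt2c, which encodes a methyltransferase that deposits H3K4me1, the match lay 1 bp from the centre of a 220 bp site in exon 23 of 59. It was in the reading frame, and its first base was base 2 of a codon, as it was for the matches in Ptar1, which encodes a prenyltransferase subunit, and in Ryr2, the calcium release channel of heart muscle. In Ash2l itself the site was 878 bp wide and centred in exon 13 of 16, away from the deleted exon, and the match lay outside the coding sequence, at the splice donor that follows this exon.

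H3K4me1 sites were less frequent in distal exons than in distal introns over all exon classes, with a ratio of 0.871 (0.842 to 0.901). Exons made up 2.52% of the distal sequence (56.5 Mb). Coding exons held 62.9 site centres per Mb (59.4 to 66.7), 3′ UTRs 56.1 (53.1 to 59.2) and non-coding exons 73.8 (69.4 to 78.4), against 72.1 (71.5 to 72.6) in introns and 37.5 (37.2 to 37.8) between genes. The ratio to introns was 0.873 (0.824 to 0.926) for coding exons, 0.778 (0.737 to 0.821) for 3′ UTRs and 1.02 (0.963 to 1.09) for non-coding exons. It was below 1 on 15 of 20 chromosomes for coding exons, on 18 for 3′ UTRs and on 10 for non-coding exons. Coding exons, 3′ UTRs and non-coding exons were all above sequence between genes. By the share of bases under a site, 3′ UTRs stood above coding exons, with 4.83% of coding, 5.40% of 3′ UTR, 6.63% of non-coding exon, 6.42% of intron and 2.93% of intergenic bases.

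Repeats differ strongly between these classes, since 4.94% of distal coding bases were repeat-masked against 30.7% of intron bases and 43.7% of intergenic bases. When only unmasked bases and the sites centred in them were counted, the coding exons moved further below introns, with a ratio of 0.735 (0.692 to 0.780), below 1 on 19 of 20 chromosomes. The ratio was 0.708 (0.668 to 0.750) for 3′ UTRs, below 1 on 20 of 20 chromosomes, and 0.930 (0.870 to 0.994) for non-coding exons, below 1 on 14 of 20 chromosomes. Within protein-coding genes alone the ratios were 0.837 (0.789 to 0.887) for coding exons, 0.745 (0.706 to 0.787) for 3′ UTRs and 0.842 (0.764 to 0.928) for non-coding exons. How well reads can be placed in each class was not tested.

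The density of sites in coding exons stayed between 59.5 and 67.3 per Mb at all distances from the TSS, while in the other classes the lowest value was found beyond 50 kb. Coding exons held 59.5 sites per Mb (52.2 to 67.5) at 3 to 5 kb from the nearest TSS, 66.7 (59.4 to 74.7) at 10 to 20 kb and 65.4 (50.5 to 83.4) beyond 50 kb. Introns went from 83.6 (81.8 to 85.3) at 3 to 5 kb to 48.2 (47.2 to 49.3) beyond 50 kb, and intergenic sequence from 49.7 (48.2 to 51.2) to 24.3 (23.9 to 24.8). Non-coding exons went from 84.5 (76.1 to 93.6) to 47.8 (33.3 to 66.4), and 3′ UTRs from 59.9 (53.5 to 66.8) to 41.3 (30.5 to 54.6), with intervals that overlap slightly. Coding exons were below introns near the TSS. Beyond 50 kb they were above them by the point values, where the coding value rests on 65 sites and its interval begins just above the upper bound of introns. On unmasked sequence the intervals of the classes overlapped there, at 65.9 (50.6 to 84.3) for coding exons and 57.9 (56.6 to 59.3) for introns. On unmasked sequence nearer the TSS, coding exons were also below intergenic sequence, which is the reverse of the order over all bases. They held 60.3 (52.8 to 68.5) against 71.02 (68.7 to 73.4) at 3 to 5 kb. At 5 to 10 kb the values were 59.4 (53.0 to 66.3) and 70.8 (69.2 to 72.5). 3′ UTRs were also below intergenic sequence there, at 60.7 (54.7 to 67.1). For both classes the point values were below intergenic sequence up to 20 kb and above it beyond.

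**Figure D1:**
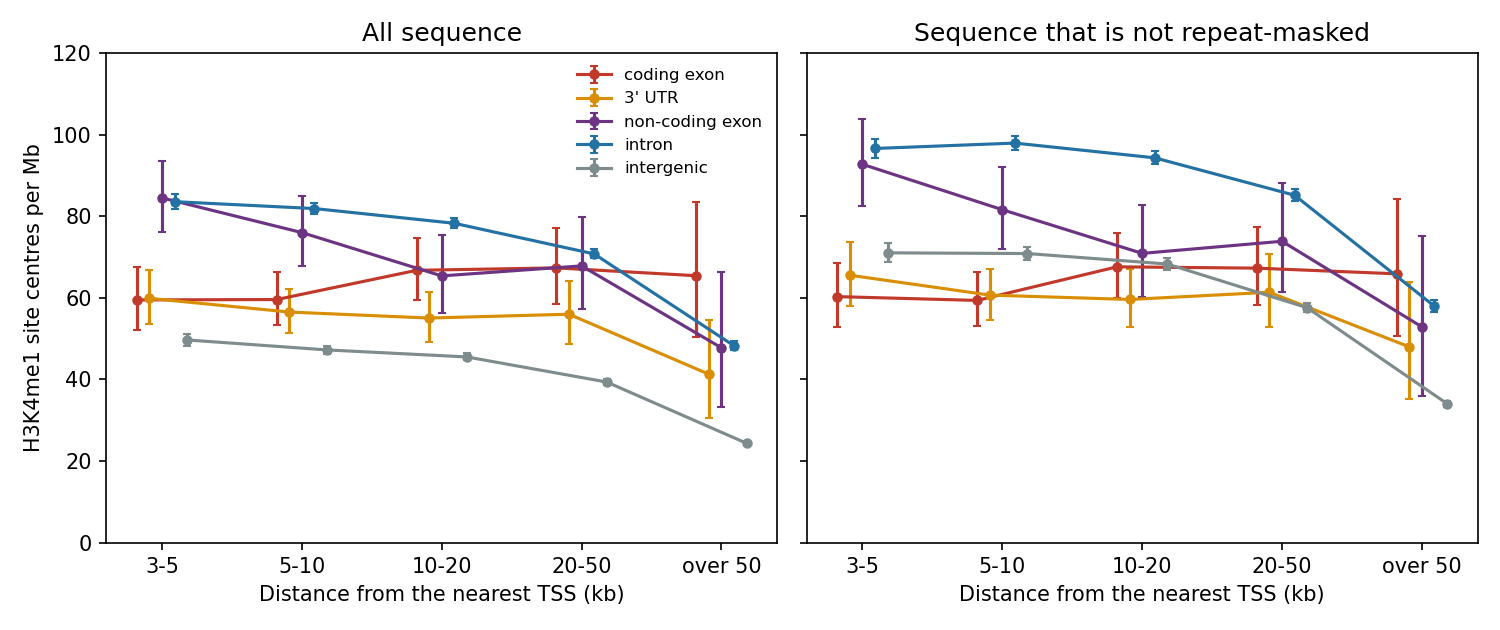
H3K4me1 site centres per Mb (vertical axis) by distance from the nearest TSS in kb (horizontal axis), for 5 classes of distal sequence, over all bases (left) and over bases that are not repeat-masked (right). Points are densities and bars 95% Poisson intervals; the red line of coding exons stays between 59.5 and 67.3 on the left while the blue line of introns falls from 83.6 to 48.2.

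Sites centred in coding exons had the lowest median width of the larger classes. Their median width was 466 bp (95% interval 441 to 508, quartiles 288 and 880), against 569 bp (565 to 574) in introns, 538 bp (534 to 543) between genes, 595.5 bp (561 to 638) in 3′ UTRs and 570 bp (539 to 603) in non-coding exons. The coding median was below the intron median on 18 of 20 chromosomes, which held for 3′ UTRs on 9 and for non-coding exons on 10. The smallest width in the table is 200 bp, and 4.605% of coding sites had exactly this width, compared with 3.25% of 3′ UTR sites, 2.85% of non-coding exon sites and 2.85% of intron sites. At the other end, 6.60% of coding sites, 8.46% of 3′ UTR sites, 8.28% of non-coding exon sites, 8.50% of intron sites and 6.06% of intergenic sites were at least 2 kb wide.

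**Figure D2:**
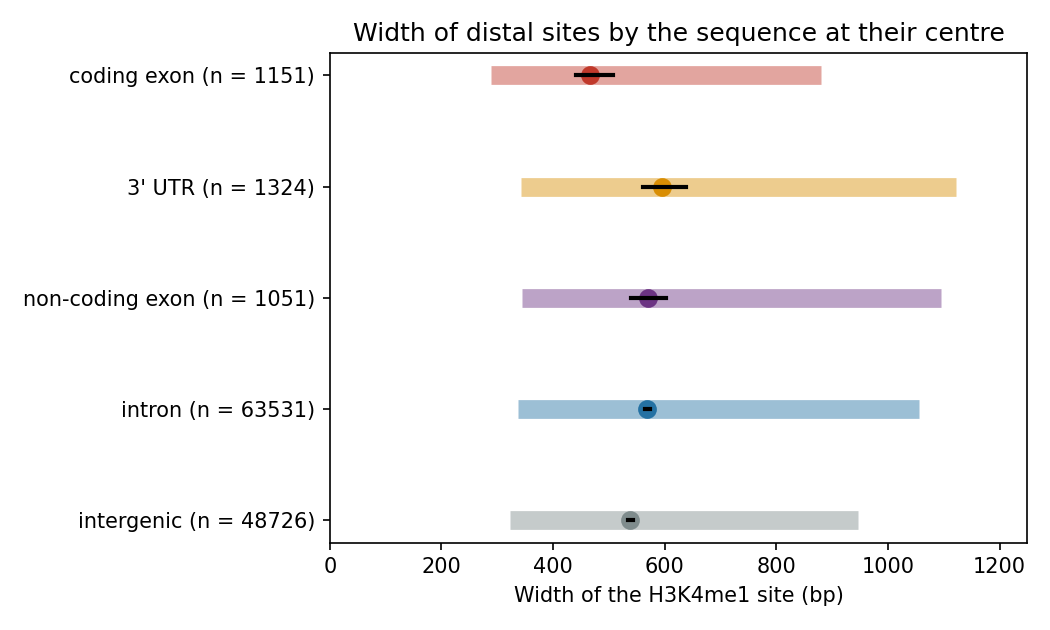
Width of distal H3K4me1 sites in bp (horizontal axis) by the class of sequence at their centre (rows, with the number of sites). Points are medians, black lines the 95% intervals of the medians and pale bars the range from the lower to the upper quartile; the coding exon median of 466 bp lies left of the other medians.

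The widest sites of each class often reached over several exons or beyond the gene, so that their class by the centre says little about them. The widest coding site, 9854 bp in Smad3, which encodes a transcription factor of TGF-beta signalling, overlapped exons with 496 of its bases. It was followed by sites of 7578 bp in Prr7 and 6063 bp in Rpl38, a gene for a ribosomal protein. The widest 3′ UTR site was 10570 bp in Pptc7, followed by Jrk with 6159 bp and Trib3, a stress-induced pseudokinase gene, with 5848 bp. Among non-coding exons the widest site, of 40381 bp, was centred in Gm19972, a gene of 1 exon that the site exceeds on both sides, followed by Gm37855 with 10606 bp and Daam2 with 6252 bp. The few 5′ UTR sites had a median width of 642 bp, with the widest, 12974 bp, in Tmbim1, 1381 bp in Rassf2 and 1262 bp in Tor1aip2. Only the centre of a site had to be distal, so a wide site can reach a TSS. The widest sites in Tmbim1, Gm19972 and Gm37855 ran over the start of their own gene. With the nearest edge over 3 kb from every TSS in place of the centre, 3288 exonic sites were counted.

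For coding exons, the site was usually larger than the exon. The median length of the coding exons that held a centre was 201 bp, and the median over all distal coding bases, each counted with the length of its exon, was 196 bp, so the exons with a centre were of ordinary length. Of the coding sites, 697 (60.6%) covered their exon from end to end and 140 (12.2%) lay wholly inside it, and a median of 209 bp of each site was exonic. A further overlap with at least 1 other exon was found for 121 sites (10.5%), up to 6 exons. In 3′ UTRs, where the median exon was 3037.5 bp long, 975 sites (73.6%) lay wholly inside the exon, as did 550 (52.3%) in non-coding exons, whose median length was 1744 bp. The 3′ UTR and non-coding sites were therefore mostly exonic sequence (97.2% and 86.7% had at least 50% of their bases in exons). This was so for 59.3% of the coding sites.

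Density varied with the length of the coding exon. The length is that of the whole exon, with any UTR part, while only coding bases and the centres in them were counted. It was 58.2 sites per Mb (52.3 to 64.6) in exons under 150 bp, 71.7 (64.8 to 79.2) at 150 to under 300 bp, 71.4 (60.9 to 83.3) at 300 to under 1000 bp, 64.5 (55.2 to 74.9) at 1000 to under 3000 bp and 40.7 (32.1 to 50.9) in exons of 3000 bp and over. The ratio of exons of at least 1000 bp to exons under 300 bp was 0.846 (0.732 to 0.976). This direction depended on narrow sites: with sites of at least 500 bp only, the ratio was 1.28 (1.05 to 1.55). The median width of the sites went from 446 bp in exons under 150 bp and 377 bp at 150 to under 300 bp to 592 bp at 1000 to under 3000 bp and 668 bp in the longest class. No such drop was seen for long 3′ UTR exons, with 58.7 sites per Mb (53.8 to 63.9) at 1000 to under 3000 bp and 55.8 (51.6 to 60.1) above that.

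**Figure D3:**
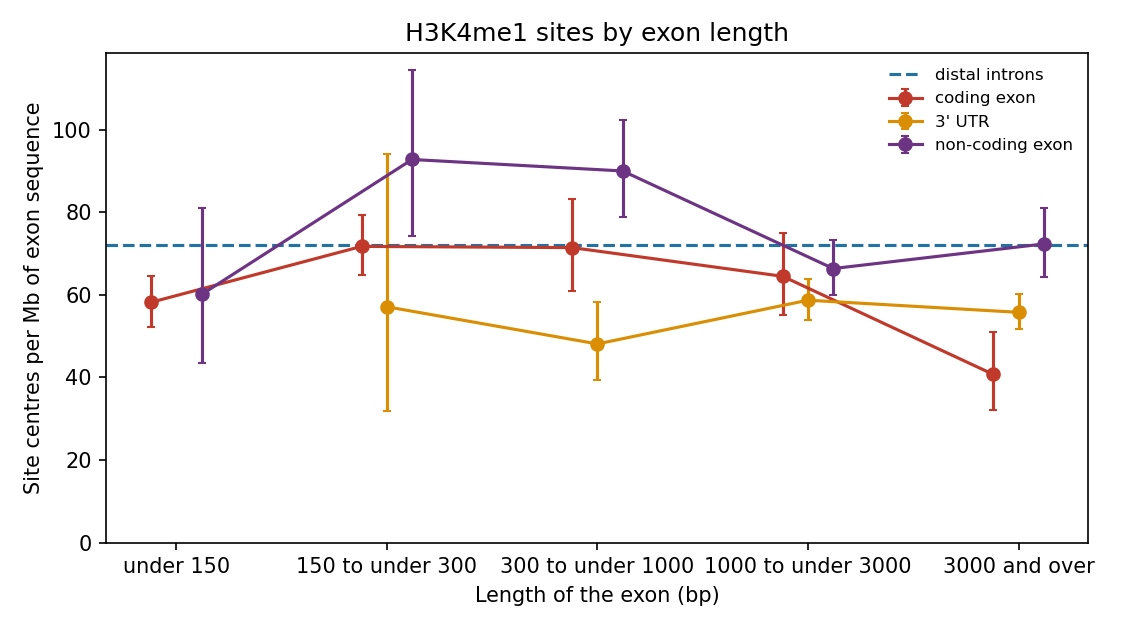
H3K4me1 site centres per Mb of exon sequence (vertical axis) by the length of the exon in bp (horizontal axis), for coding exons, 3′ UTRs and non-coding exons, with 95% Poisson intervals; values with under 10 sites are left out and the dashed line is the density in distal introns. Length is that of the whole exon, with any UTR part, while each class counts only its own bases. Coding exons of 3000 bp and over are lowest, at 40.7 sites per Mb.

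Internal and last coding exons differed little in the frequency of sites and more in the width of the sites. Exon length was not held fixed, so rank and length were not separated. Internal coding exons held 880 centres, 62.3 per Mb (58.3 to 66.6), with a median width of 422.5 bp, and last exons 268, 64.95 per Mb (57.4 to 73.2), with a median width of 652.5 bp. The median coding site sat in exon 6 of a transcript with a median of 13 exons. The last exon held 1285 of 1324 centres in 3′ UTRs (97.1%) and 801 of 1051 in non-coding exons (76.2%), close to its share of the distal sequence of these classes (98.0% and 75.1%). In the 3′ UTR, the centre was a median of 1101 bp before the end of the transcript, and 615 sites (46.5%) lay within 1 kb of it.

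Around internal coding exons under 1000 bp the coverage by sites had a small peak on the exon in a wide trough. The exons came from the transcript with the longest coding sequence of each protein-coding gene. Only those were used whose whole window, about 5 kb to either side, lay over 3 kb from every TSS. In the central 100 bp bin of 50134 such exons under 300 bp, 4.42% of bases were under a site. The average was 3.91% at 300 to 1000 bp on either side. At 4 to 5 kb it was 5.44% upstream and 4.67% downstream. The 1588 exons of 300 to under 1000 bp had 4.29% at the centre, 3.42% at 300 to 1000 bp and 5.73% and 5.36% at 4 to 5 kb. In the 289 exons of 1000 bp and over the centre was lower, at 2.99%, with 4.41% at 300 to 1000 bp. At 4 to 5 kb these exons had 6.83% upstream and 5.90% downstream. The bases at 300 to 1000 bp lie partly in the exon itself there. This also holds for the longer of the exons of 300 to under 1000 bp. Repeat content was lowest at the exon. For the exons under 300 bp, 6.06% of bases were masked at the centre, 24.2% at 500 bp upstream and 28.8% at 5 kb upstream. The part of repeats in the peak and in the trough was not tested.

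**Figure D4:**
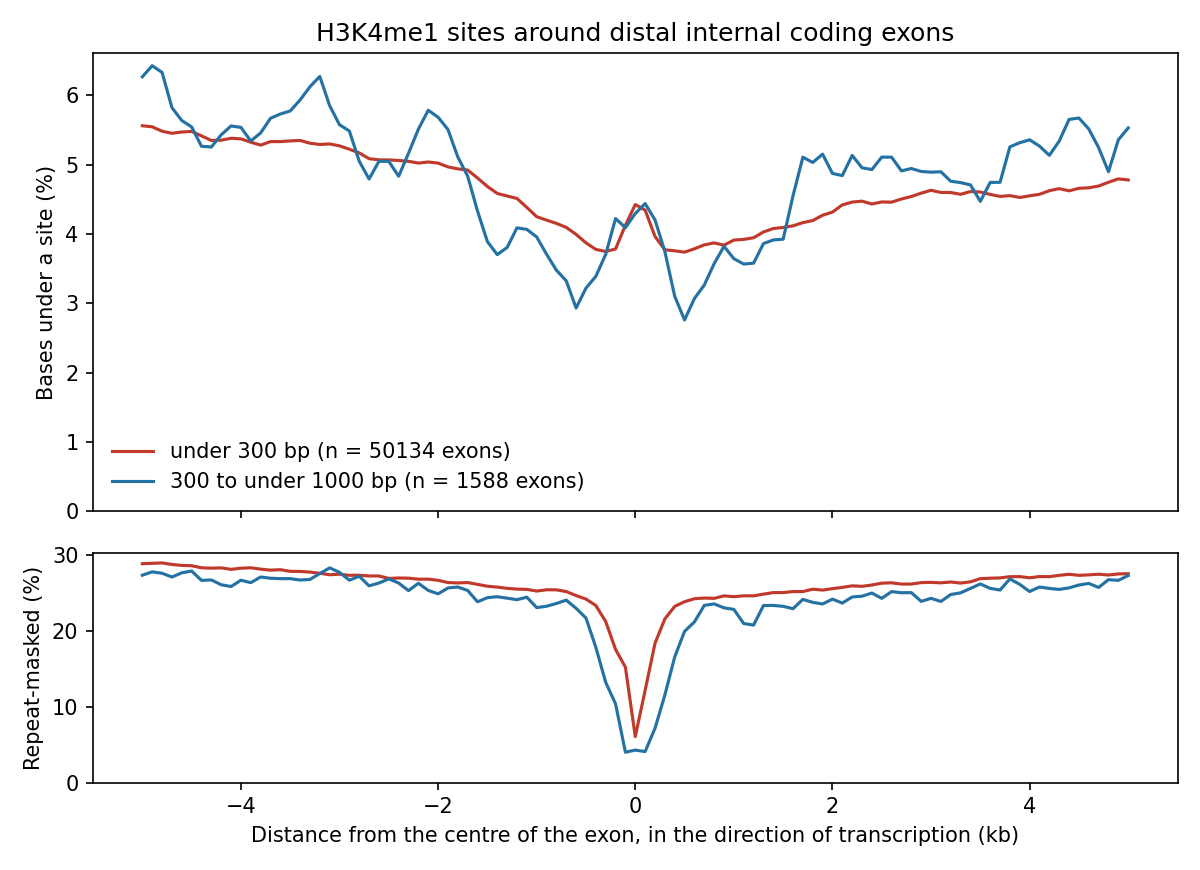
Share of bases under an H3K4me1 site in percent (upper panel) and share of repeat-masked bases in percent (lower panel) by distance from the centre of distal internal coding exons in kb, upstream to the left, in bins of 100 bp, for exons under 300 bp (red) and of 300 to under 1000 bp (blue). Neighbouring bins share sites and no error is drawn; in red, 4.42% at the exon stands between 3.91% at 300 to 1000 bp and 5.44% at 4 to 5 kb upstream.

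CpG islands were more frequent at coding sites than at the other classes. An island overlapped 81 of the 1151 coding sites (7.04%, 5.70 to 8.66%), 32 of the 3′ UTR sites (2.42%, 1.72 to 3.39%), 13 of the non-coding exon sites (1.24%, 0.724 to 2.10%), 0.414% (0.367 to 0.467%) of the intron sites and 0.831% (0.754 to 0.916%) of the intergenic sites. The coding share was above the intron share on 19 of 20 chromosomes. Islands are also far denser in the sequence itself, with 50.0 island centres per Mb of distal coding sequence against 0.533 in introns. Counted per island, coding exons had the lowest share of these classes: 147 of 915 distal islands centred in coding exons (16.1%, 13.8 to 18.6%) overlapped a site, compared with 150 of 470 in introns (31.9%, 27.9 to 36.3%) and 403 of 868 between genes (46.4%, 43.1 to 49.8%). Coding sequence is richer in G and C, at 50.1% of distal bases against 41.9% in introns, but the median G and C content of the sites themselves was close, at 50.0% and 47.6%.

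Of the exonic sites at the longest islands, a site of 4965 bp lay over an island of 4338 bp in Tchh, which encodes the hair follicle protein trichohyalin, and filled most of an exon of 5685 bp. Zfp503, a gene for a zinc finger repressor, had a site of 226 bp at an island of 3548 bp, and Nkpd1 a site of 1964 bp over an island of 1763 bp. In the 3′ UTR of Scrt1, a gene for a neural repressor, a site of 1361 bp overlapped an island of 2206 bp. The antisense RNA gene Gm13425 had a site of 621 bp in an island of 2131 bp. A TSS of the RefSeq annotation lay 873 bp from the centre of this last site. The longest exons with a coding centre were the last exons of Kcnb2 (14266 bp), Usf3 (12051 bp), Ptar1 (11611 bp), Prdm11 (10711 bp) and Naa16 (10663 bp), and Kcnb2, a potassium channel gene, had 3 further sites in the 3′ UTR part of the same exon.

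The AP-1 sequence was found at the centre of exonic sites about as often as at other distal sites. TGAGTCA, on either strand, was present in the central 200 bp of 105 coding sites (9.12%, 7.59 to 10.9%), 142 3′ UTR sites (10.7%, 9.17 to 12.5%) and 126 non-coding exon sites (11.99%, 10.2 to 14.1%), compared with 9.99% (9.76 to 10.2%) of intron sites, 11.9% (11.6 to 12.2%) of intergenic sites and 9.70% of all sites on chromosomes. In windows of the same length 5 kb to either side it was present in 3.21% for coding sites, 4.04% for 3′ UTR sites and 3.09% for non-coding exon sites. Of the 105 coding sites, the match nearest the centre lay within the coding sequence in 55 and at a splice donor, beginning at base 2 of the intron as in Ash2l, in 11. Donor sites often read GTGAGT and so share letters with this motif.

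The motif was also denser within the coding sequence under sites than in coding sequence elsewhere. The longest reading frame of each of 21469 genes was used, and only its bases over 3 kb from every TSS were counted. TGAGTCA occurred 0.244 times per kb (0.212 to 0.280) in the 851 kb under H3K4me1 sites. Outside them it occurred 0.113 times per kb (0.108 to 0.118), a ratio of 2.17 (1.88 to 2.50). The reading frame limits where it can stand. None of the 208 matches under sites and none of the 1915 outside began at the first base of a codon, where the motif, which begins with TGA on either strand, would be read as a stop codon. Under sites 82 began at base 2 and 126 at base 3 (60.6%), and outside 848 and 1067 (55.7% at base 3).

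Other short sequences were counted in the same windows. CATTCCA, bound by TEAD factors, was present in 5.21% of coding (4.07 to 6.65%), 4.91% of 3′ UTR (3.87 to 6.21%) and 4.57% of non-coding exon sites (3.46 to 6.003%), with 3.30%, 3.17% and 3.76% at 5 kb and 4.76% over all sites. TGTGGTT, bound by RUNX factors, was at 4.08% in coding sites (3.08 to 5.39%) and 4.04% at 5 kb, while intron sites had 6.10% and 4.97%. AGGTGGC, a part of the sequence bound by CTCF, was at 4.69% in coding sites (3.61 to 6.07%) and 3.04% at 5 kb, and over all sites at 3.83%. A match is a stretch of letters and was not tested for binding.

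Sites in coding exons lay further from their neighbours than intron sites. The median gap to the nearest other site was 1731 bp (quartiles 490 and 5854.5) for coding sites, 1163.5 bp for 3′ UTR sites and 1256 bp for non-coding exon sites, against 1012 bp for intron and 1740 bp for intergenic sites. A gap under 1 kb was found for 40.5% of coding, 47.0% of 3′ UTR, 45.005% of non-coding exon and 49.8% of intron sites, and a gap over 20 kb for 5.39%, 2.42%, 4.28% and 3.65%.

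The 3543 sites fell in 2823 genes, 11.7% of the 24051 genes with distal exon sequence. Most of these genes (2280) had 1 site, 413 had 2 and 130 had 3 or more. Coding sites were spread over 1021 genes, 3′ UTR sites over 1094 and non-coding sites over 927, and 136 genes had both a coding and a 3′ UTR site. A site within 1 kb of a TSS was present in 86.6% (84.4 to 88.5%) of the genes with a coding site and 91.6% (89.8 to 93.1%) of those with a 3′ UTR site, compared with 70.4% (69.7 to 71.2%) of the 14263 protein-coding genes without an exonic site. The genes differ in size too, with a median length of 60.5 kb, 43.3 kb and 24.5 kb in this order, and the part of gene length in the difference was not tested. Intronic distal sites numbered a median of 4, 2 and 0.

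The extracellular matrix is the secreted product by which fibroblasts are known. Of 24 matrix genes with distal exon sequence, 10 held 21 sites, which is 147 sites per Mb (90.9 to 224), compared with 59.7 (57.6 to 61.9) over the 16514 protein-coding genes, of which 13.6% held a site. Of these 21 sites, 7 were in Col12a1 and 5 in Tnc, and without these genes, a choice made after their values were seen, the other 22 held 9 sites, 73.5 per Mb (33.6 to 140). Of 24 genes of the cytoskeleton and adhesion 11 held 16 sites, 117 per Mb (67.1 to 191). A list of 21 genes with long or many exons that are known from muscle, brain, gut or epithelia had 7 genes with 14 sites, 39.2 per Mb (21.4 to 65.8). Among 15 genes of H3K4 methylation 4 held 5 sites, 67.5 per Mb (21.9 to 157). Among 7 long non-coding RNAs 2 held 10 sites, 100 per Mb (48.1 to 184). Over all 5786 long non-coding RNA genes with distal exon sequence, 8.81% held a site, with 91.3 sites per Mb (84.0 to 99.1).

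Col12a1, which encodes a collagen that binds to the surface of collagen I fibrils, had the most exonic sites of all genes. The transcript mapped here has 66 exons and 24 sites lay along the gene, of which 6 were centred in coding exons, 1 in the exon of a retained-intron transcript, 10 in introns and 7 within 3 kb of a TSS. The coding sites were in exons 15, 20, 35, 42, 46 and 47, and in this order they were 494, 207, 340, 1341, 1230 and 386 bp wide. Each of these exons was 143 to 267 bp long. The site in exon 42, at chr9:79639079-79640419, overlapped a neighbouring exon as well. The coding sites of Col12a1 thus ranged from near the smallest width in the table to well above the median of all coding sites.

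**Figure D5:**
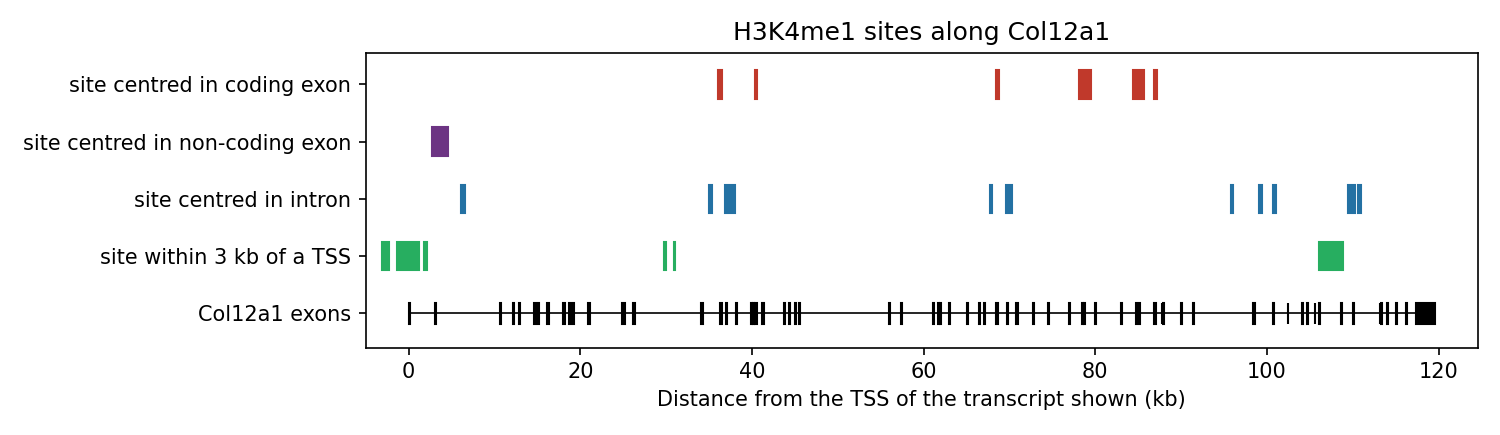
H3K4me1 sites along Col12a1 by distance from the TSS of its transcript of 66 exons in kb (horizontal axis), with a row for each class of the site's centre and the exons in black at the bottom; boxes are drawn to the scale of the axis. The 6 sites in coding exons lie between 35.987 and 87.166 kb from the TSS, and the 10 intron sites between 6.096 and 110.963 kb.

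Other genes of these lists had fewer sites. Tnc, which encodes the matrix glycoprotein tenascin-C, had 4 coding sites, in exons 3, 5, 19 and 20 of 26, with widths of 1605, 749, 442 and 252 bp, and 1 in the 3′ UTR. Single coding sites were found in Fn1 (fibronectin, 200 bp), Fbn1 (fibrillin-1, 850 bp), Col6a3 (564 bp), Myh9 (non-muscle myosin heavy chain, 2222 bp) and Tns1 (tensin-1, 429 bp). Col1a1, the gene of the main fibrillar collagen, had a site of 200 bp in the 3′ UTR, and Col1a2, Col6a1, Vcan and Hspg2 had no exonic site in 2.66 to 13.0 kb of distal exon sequence each. The actin-binding tropomyosin genes Tpm1 and Tpm2 had 3′ UTR sites of 464 and 2205 bp.

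Genes that are used mainly in other tissues also held sites. Pclo, a gene of the presynaptic zone, had 3 narrow coding sites of 200, 353 and 322 bp, and Cubn, which encodes an endocytic receptor of kidney and gut, had coding sites of 399, 261 and 1608 bp and 1 in a non-coding exon. Tg, the thyroglobulin gene, had coding sites of 4541 and 280 bp. Ryr1 and Ryr2, calcium release channels of muscle, had coding sites of 613 and 372 bp. No exonic site was found in Ttn, the titin gene, which had 98.2 kb of distal exon sequence, or in Neb and Dnah5. Whether the cells transcribe any of these genes is not part of the table.

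Beyond the lists, Lgr6, a receptor gene for R-spondins, had 4 coding sites of 202 to 1222 bp and 1 3′ UTR site, and Sf3b3, which encodes a splicing factor subunit, had 3 coding sites, including sites of 3297 and 4079 bp that spanned 5 and 4 exons. Most of the 1094 genes with a 3′ UTR site had 1 such site (905), 152 had 2 and 37 had 3 or more. Among those with the most sites, Rassf2, a gene of the RAS association domain family, had 4 in an exon of 7039 bp, with widths of 443, 612, 1275 and 357 bp. Sestd1 had 4 in an exon of 6921 bp, with widths of 442 to 1288 bp, and Col4a4, a basement membrane collagen gene, had 4 of 232 to 573 bp in an exon of 4972 bp. Lsamp, which encodes a neural adhesion molecule, had 4 of 219 to 734 bp, and E130308A19Rik had 3 of 298, 3639 and 2295 bp in an exon of 9207 bp. After fusing neighbours up to 1 kb apart into new sites with new centres, 2475 of these were distal and centred in an exon.

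Among the genes of H3K4 methylation, besides Kmt2c and Ash2l, the demethylase gene Kdm5b had a coding site of 823 bp in exon 19 of 27 and Kdm5a had sites of 308 and 1169 bp in its 3′ UTR. Kmt2a, Kmt2d, Setd1a, Setd1b, Wdr5, Rbbp5 and Dpy30 encode other methyltransferases and the core subunits that work with ASH2L. They had no site in distal exons, but each had only 0.494 to 9.22 kb of such sequence. The density over all protein-coding genes was 59.7 sites per Mb. The human ASH2L construct has no place in the mouse sequence and was not analysed here.

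Non-coding exons were of different kinds. Of the 1051 sites, 353 (33.6%) were in exons of lincRNAs, 316 (30.1%) in retained-intron transcripts, 159 (15.1%) in antisense RNAs and 137 (13.0%) in other processed transcripts, and 410 (39.0%) belonged to protein-coding genes. A retained intron is annotated as an exon of a rarer transcript and is an intron of the others. Neat1, the RNA on which paraspeckles are built, had 5 sites of 868 to 5348 bp within its exon of 20771 bp, the widest at chr19:5829545-5834892. Kcnq1ot1, the imprinted antisense RNA of the Kcnq1 locus, had 5 sites of 277 to 2092 bp in an exon of 93092 bp. The summed width of the sites was 10608 bp in Neat1 and 3981 bp in Kcnq1ot1, so that Neat1, the shorter exon, was covered more densely. Creb5, an AP-1 related factor gene, had 5 sites of 387 to 2237 bp in non-coding exons and 1 of 231 bp in a coding exon. Mllt3, a chromatin reader gene, had 4 of 250 to 1572 bp, and the lincRNA gene 3110039I08Rik 4 of 345 to 1023 bp.

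The limit of 3 kb cut through a continuous set. The members nearest to it lay 3002 to 3014 bp from a TSS and the exonic sites just outside it 2990 to 3000 bp. At 2500 to 3000 bp there were 316 exonic sites with a median width of 570 bp, and at 3000 to 3500 bp there were 306 with a median width of 640 bp. Of the members, 221 (6.24%) had a RefSeq TSS within 3 kb that the GENCODE annotation lacks, 73 of them in coding exons, 49 in 3′ UTRs and 98 in non-coding exons. The share of distal sites centred in exons ran from 2.22% to 4.10% over the 20 chromosomes.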

How the data were processed

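H3K4me1 ChIP-seq libraries were grouped by the dTAG-13 times given in the labels. The deposited table holds only positions (chromosome, start and end in mm10, starts counted from 0) and no other unit; coordinates printed here count from 1. According to the methods, the authors trimmed reads with Trim Galore, aligned them with BWA, filtered them with SAMtools, pooled the replicates by means of Picard and ran Macs in its broad mode; versions, thresholds and the way in which the sets of the samples were joined are not given in the sources used here. Broad calling and joining set the widths and split or fuse neighbouring sites. The depth of each library cannot be read from the positions, and the least read number that the methods aimed for was not used here. No column of per-sample values was left unused.

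Sites were placed on GRCm38.p6 with GENCODE M21 (141730 transcripts, 132629 TSSs); M25, which the study names, was not used here. Where transcripts overlapped, coding sequence took precedence, then UTR, then non-coding exon, intron and intergenic sequence. CpG islands (17038) were found in sequence without masked repeats as runs that gain 17 at each CpG and change by -1 at any base besides, with a length of at least 200 bp, at least 50% G and C and an observed to expected ratio over 0.6. Motifs were searched on both strands. Shares carry 95% Wilson intervals, densities exact Poisson intervals, density ratios log-normal Poisson intervals and medians binomial rank intervals. They treat neighbouring sites as independent, which these are not, and no p-value was computed, since the table has no replicates.

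The classes, gene lists and named genes were chosen with earlier results of these data known. Named genes were, for each exon class, the 5 genes with most sites and those at the 3 widest sites, the genes at the 5 longest CpG islands and the 5 longest coding exons, and list genes with a site; list genes without a site that are named (Col1a2, Col6a1, Vcan, Hspg2, Ttn, Neb, Dnah5, Kmt2a, Kmt2d, Setd1a, Setd1b, Wdr5, Rbbp5 and Dpy30) were chosen after their values were seen. Not every gene that the rule names is reported here. Functions were tested on simulated data. Python 3.11.15, numpy 2.4.6, scipy 1.17.1, pandas 2.3.3, numba 0.67.0 and matplotlib 3.10.9 were used.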

Additional observations from a re-analysis of the deposited data

Results flagged for a closer look

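Outside the comparisons, which were made on chromosomes, 36 H3K4me1 sites lay on scaffolds that are not placed in the chromosome sequence. They were counted only, since the pooled set gives no values for the control libraries to compare them with.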

How the results depend on the processing

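Of 60 alternatives for 9 results, 29 gave the same value within counting error or 1.5 times the count, 30 moved it and 1 reversed it. With only TSSs of protein-coding transcripts as the limit, there were 6565 exonic sites in 5133 genes, 5.00% of distal sites, with a median width of 579 bp, 5.93% at a CpG island and a density ratio to introns of 0.938. With 2 kb in place of 3 kb the share was 3.48% and the island share 4.32%, and with 5 kb they were 2.56% and 2.76%. With sites of at least 500 bp only, 1932 sites in 1721 genes remained, with a median width of 985 bp, an island share of 5.90% and a density ratio of 0.842, and the ratio of long to short coding exons turned from 0.846 to 1.28. Merging sites within 1 kb gave a share of 2.96% and a median width of 720 bp. Exons of protein-coding transcripts alone gave 2.13%, an island share of 4.59% and a density ratio of 0.823, transcripts tagged basic gave 2.63%, and leaving out retained introns gave 2.79%. With at least 50% of the site's bases in exons in place of its centre, the share was 2.54% and the median width 513.5 bp. Islands of at least 500 bp gave an island share of 1.86%, and the centre of the site in the island 2.48%. TGAGTCA anywhere in the site was found in 28.7%. Without Col12a1 and Tnc, an alternative also chosen after seeing the data, the matrix genes had 73.5 in place of 147 exonic sites per Mb. The density ratio was 0.768 on unmasked bases and 0.793 within protein-coding genes. The alternatives differ from the main setting in the sites, bases, exons or islands that were counted. The cause of the changes, including the reversal, was not tested. Adding RefSeq TSSs, likewise chosen after seeing the data, gave the same for 6 of 6 results, with 3322 sites.

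No paired analysis was possible because the file analysed here gives positions and no values for single libraries. The alternatives for sites that change per time point, with the replicate block or with each replicate left out, were not run for the same reason, and the list of changed sites that the study names was not analysed here. The depth of each library, which limits how weak a site can be called, cannot be read from the file.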
